A study of Homo sapiens with 9 samples.

Results

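The 10 core circadian clock genes were CLOCK, BMAL1 (listed as ARNTL in older annotations), PER1, PER2, PER3, CRY1, CRY2, NR1D1, NR1D2 and DBP. They were taken by name, with every transcript matched to them in the annotation, out of 56349 genes with a matched transcript. All 10 were among the 16181 genes tested. Of all transcripts 85.1% had a gene, so a member's transcript without a match would be missed. RNA came from HEK293, a line of human embryonic kidney cells, treated with control siRNA or with combined siRNAs against WTAP and KIAA1429 (now VIRMA), and split into nuclear and cytoplasmic fractions. There were 3 control nuclear, 3 WTAP/KIAA1429 RNAi nuclear, 2 WTAP/KIAA1429 RNAi cytoplasmic and 1 control cytoplasmic libraries. The labels do not say whether the replicates were separate cultures, so p-values measure the spread between these libraries only.

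WTAP and KIAA1429 are subunits of the complex that writes N6-methyladenosine (m6A) on mRNA, together with the enzymes METTL3 and METTL14. The clock is a transcriptional feedback loop. CLOCK and BMAL1 pair to activate genes with E-box sequences, among them PER, CRY, NR1D and DBP genes. PER and CRY proteins return to the nucleus and block that pair, while the nuclear receptors NR1D1 and NR1D2 (REV-ERBs) repress BMAL1, and DBP activates genes with D-box sequences. Clock mRNAs carry m6A, and the writer enzyme is known to affect the period of the loop. A culture whose cells are not synchronised averages all phases, and the labels give no time of day.

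The E-box letters are shown because the loop acts on its own genes through them. The 250 bases before the start of each gene, in RefSeq promoters of GRCh38.p14, were searched for the E-box CACGTG and its variant CACGTT on both strands. All 10 genes matched, with 15 promoters among 35116. The E-box stood in 2 of the 15 promoters, and in 6.34% of all. The variant stood in 5 of the 15 and in 4.55% of all. Capitals mark the motif as read on the gene's strand, so that CACGTT on the opposite strand appears as AACGTG.
PER1, chr17:8152560-8152589, minus strand: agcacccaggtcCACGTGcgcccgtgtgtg
NR1D2, chr3:23945954-23945983, plus strand: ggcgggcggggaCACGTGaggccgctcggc
NR1D2, chr3:23946004-23946033, plus strand: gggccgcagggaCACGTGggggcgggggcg
PER2, chr2:238288790-238288819, minus strand: ggcgcgcgcggtCACGTTttccactatgtg
CLOCK, chr4:55546102-55546131, minus strand: tcaccactcgggCACGTTtggagcagcgcc
CRY1, chr12:107093621-107093650, minus strand: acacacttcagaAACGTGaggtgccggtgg
CRY2, chr11:45847275-45847304, plus strand: acacatggtaggAACGTGagggggcgggcc
NR1D1, chr17:40100740-40100769, minus strand: gcgcaagagctcAACGTGccggctgttgga

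The m6A complex writes mainly at adenosines in a short consensus that GGACT fits, often near stop codons and in long exons. In the most abundant coding transcript of each clock gene, GGACT occurred between 1 time in DBP and 12 times in PER2. The median of the 10 was 0.885 per kb, beside 0.96 per kb over the 13288 tested genes with a coding transcript, of which 86.1% held the letters at least once. CRY2 and PER1 both had 2.14 per kb, a density that 90.8% of all tested genes did not exceed, and CLOCK had 0.679 per kb. CLOCK ended in an exon of 7692 nt, and 98% of tested genes had a last exon no longer than that. The 5 sites within 100 bases of the last coding base are shown with GGACT in capitals, on GRCh37. Those of CLOCK, PER1, PER2 and BMAL1 lay in the coding sequence and that of PER3 in the 3′ UTR.
CLOCK, chr4:56301611-56301635, minus strand: agccggcacaGGACTgacagcttgc
BMAL1, chr11:13408246-13408270, plus strand: agcagatgctGGACTgggtggccct
PER1, chr17:8044453-8044477, minus strand: caagctctcaGGACTtggctatgga
PER2, chr2:239155079-239155103, minus strand: tccttctctgGGACTcagcgaagtg
PER3, chr1:7902874-7902898, plus strand: tttaagtcctGGACTtttaaatgac
No methylation was measured in these libraries, so the letters locate the motif and not a modified base.

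The libraries held 11627403 to 19036141 estimated counts, of which 83.07% to 88.31% were on transcripts matched to a gene. Replicates of a group had correlations of log2 CPM, the estimated counts scaled to one library total, of 0.972 to 0.986 across genes. WTAP had 23.0 to 27.6 CPM in control nuclei and 12.3 to 15.6 CPM after RNAi, and KIAA1429 13.2 to 19.9 CPM and 5.53 to 9.19 CPM. In the cytoplasm WTAP went from 37.5 CPM to 10.8 and 11.9 CPM, and KIAA1429 from 17.4 CPM to 4.09 and 4.22 CPM. The 3 nuclear RNAs MALAT1, NEAT1 and KCNQ1OT1 summed to 254.9 to 353.7 CPM in control and 390.2 to 418.8 CPM in RNAi nuclei, with no overlap. They summed to 33.2 CPM in the control cytoplasmic library and 19.6 to 20.5 CPM in the RNAi ones, so this list was higher in the nucleus and lower in the cytoplasm after RNAi. The 7 mitochondrially encoded mRNAs, taken as a cytoplasmic list, did not separate the fractions: they summed to 122542.1 to 238465.1 CPM in nuclear and 93175.1 to 178383.3 CPM in cytoplasmic libraries. Of 6 HEK293 markers, 5 were in the files and all 5 were at 1 CPM or more in every library. They summed to 640.1 to 879.1 CPM in control and 1000.3 to 1111.1 CPM in RNAi nuclei, and to 1075.6 CPM in the control and 1685.5 to 2169.8 CPM in the RNAi cytoplasmic libraries. Of 13 markers of other cell types, 12 were in the files, 4 were at 0 throughout, and CDH1 alone reached 1 CPM in every library. The list summed to 32.5 to 58.6 CPM in control and 28.3 to 30.3 CPM in RNAi nuclei, and to 14.2 CPM in the control and 14.9 to 18.1 CPM in the RNAi cytoplasmic libraries. The part of these lists in the results was not tested.

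On the scale of TPM, which divides by transcript length, PER1 was the most abundant clock gene in every group, with all its transcripts summed. Its mean was 109.8 ± 11.6 TPM in control nuclei (SD, n = 3) and 119.4 ± 12.4 TPM in RNAi nuclei (SD, n = 3). In control nuclei CRY1 (16.7 ± 2.78 TPM) and DBP (15.5 ± 4.91 TPM) followed, with ranges that overlapped. CRY2 (7.44 ± 1.15 TPM) and NR1D1 (7.18 ± 0.981 TPM) also overlapped, and below them BMAL1 had 3.80 ± 1.32 TPM. The ranges of NR1D2 (2.19 ± 0.244 TPM) and PER2 (2.05 ± 0.319 TPM) overlapped, as did those of PER2 and CLOCK (1.91 ± 0.126 TPM). PER3 was the lowest, at 0.537 ± 0.0424 TPM. In RNAi nuclei DBP (18.5 ± 1.37 TPM, n = 3) stood above CRY1 (12.1 ± 0.394 TPM) with no overlap. In RNAi cytoplasm DBP was at 31.9 ± 2.65 TPM and CRY1 at 11.8 ± 4.80 TPM (SD, n = 2).

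**Figure D1:**
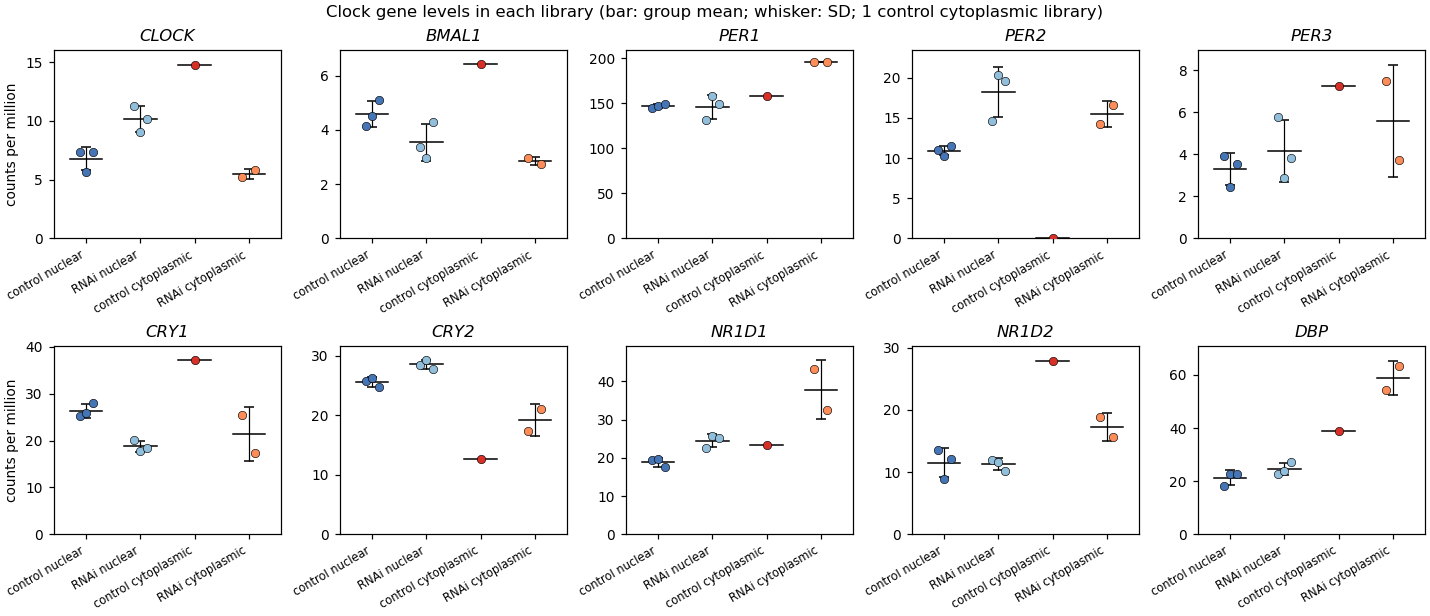
Level of each of the 10 clock genes in CPM (linear axes from 0) in every library, by group, where points are libraries, bars group means and whiskers SDs, with a single control cytoplasmic library. CLOCK is higher in all 3 RNAi nuclear than in all 3 control nuclear libraries while both RNAi cytoplasmic libraries (5.22 and 5.79) lie below the control cytoplasmic one (14.8), and PER2 is at 0 in the control cytoplasmic library.

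The first comparison asked whether loss of the writer subunits moved clock mRNAs between the compartments, by setting the nuclear/cytoplasmic ratio of RNAi cells against that of control cells. CLOCK was the member whose ratio rose on this test, 4.08-fold, with a single control cytoplasmic library in the comparison. CLOCK fell in the cytoplasm, while its smaller rise in the nucleus was lost in 9 of 18 alternatives. The 3 nuclear RNAs MALAT1, NEAT1 and KCNQ1OT1, a list of fraction markers, had a summed CPM that was also higher in RNAi nuclei and lower in RNAi cytoplasm, and their part in this result was not tested. PER2 was also called, as lower, but that call rested on a single value of 0 that is described further on, and it disappeared when an unmatched transcript was added. The other 8 members did not pass, with log2 fold changes between -0.44 for CRY2 and 0.81 for BMAL1. A call needed an adjusted p under 0.1 and a log2 fold change beyond 0.5 in size, both from the quasi-likelihood test of edgeR, adjusted by Benjamini and Hochberg's method over all 16181 genes. In all, 10.4% of genes were called higher and 7.87% lower, against 1 of 10 members in each direction. At an unadjusted p under 0.05 by edgeR, 3 members were higher (CLOCK, BMAL1 and NR1D2) and 1, PER2, lower. Of all 16181 genes, 2314 were higher and 2221 lower at that level. The median log2 fold change was -0.01 over the members and -0.05 over all genes. Without scaling for composition the median over all genes rose to 0.23 and the share of called genes that were higher went from 56.9% to 93.2%, while CLOCK had a log2 fold change of 2.32, or 2.08 above that median.

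CLOCK (ENSG00000134852, GRCh37 chr4:56294070-56413076, minus strand) encodes the histone acetyltransferase of the activating pair. Control nuclei had 7.35, 5.66 and 7.34 CPM and RNAi nuclei 11.3, 9.08 and 10.2 CPM. The control cytoplasmic library had 14.8 CPM and the RNAi ones 5.22 and 5.79 CPM. Thus the RNAi libraries were all higher in the nucleus and all lower in the cytoplasm, with no overlap in either on the CPM scale. On the TPM scale the nuclear groups overlapped, with 2.03, 1.78 and 1.93 TPM in control and 1.66, 2.74 and 3.71 TPM in RNAi nuclei. The nuclear/cytoplasmic ratio of CLOCK rose by 2.03 on the log2 scale (SE 0.28, edgeR adjusted p = 0.00326), and between 1.68 and 2.32 over 17 alternatives, in each of which it was called. All 17 kept the single control cytoplasmic library, whose spread was assumed to be that of the other groups, so they could not test its part. In the nucleus CLOCK rose by 0.59 on the log2 scale (SE 0.16, edgeR adjusted p = 0.0688), a call that was lost on leaving out control nuclear replicate 2 (0.48) or 3 (0.64), or RNAi nuclear replicate 1 (0.51), 2 (0.67) or 3 (0.60). It was also lost with an offset for the mean length of each gene's transcripts in each library, the transcript length offset (0.38, edgeR adjusted p = 0.492), with limma on log2(TPM + 1) (0.31), with protein-coding transcripts only (0.60) and at an FDR of 0.05. In the cytoplasm it fell to 0.37 of the control level (log2 -1.43, SE 0.23, edgeR adjusted p = 0.00331). In control cells CLOCK was lower in the nucleus than in the cytoplasm (log2 -1.13, SE 0.21, edgeR adjusted p = 0.0015), and in RNAi cells it was higher (0.90, SE 0.19, edgeR adjusted p = 0.00214). Exons of TMEM165 on the opposite strand share 76 bases with exons of CLOCK, and TMEM165 had 202 to 471 estimated counts.

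BMAL1 (ENSG00000133794, chr11:13298199-13408813, plus strand) encodes its partner and is the member whose loss alone stops the mouse clock. Control nuclei had 4.13, 4.53 and 5.10 CPM and RNAi nuclei 3.36, 2.95 and 4.30 CPM, with overlap. In the cytoplasm the control library had 6.43 CPM and the RNAi ones 2.95 and 2.74 CPM, both lower. BMAL1 fell in the cytoplasm to 0.444 of the control level (log2 -1.17, SE 0.28, edgeR adjusted p = 0.0174) and was not called in the nucleus (-0.36, SE 0.20, edgeR adjusted p = 0.323). Its ratio change of 0.81 (SE 0.35) had an edgeR adjusted p of 0.159, so the difference between the compartments was not shown. With protein-coding transcripts only the ratio change was 1.71 and the cytoplasmic one -2.14, neither called, and with the transcript length offset the cytoplasmic call was lost (-1.36, edgeR adjusted p = 0.101). With 25 to 106 estimated counts a library, BMAL1 and PER3 (31 to 119) had the lowest mean counts of the 10.

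PER1 (ENSG00000179094, chr17:8043790-8059824, minus strand) encodes a repressor that also responds quickly to hormones and serum. Control nuclei had 145.0, 147.6 and 149.8 CPM and RNAi nuclei 131.7, 157.8 and 149.7 CPM. The control cytoplasmic library had 158.6 CPM, below 195.7 and 196.2 CPM after RNAi. PER1 was not called in the nucleus (log2 -0.01, SE 0.09) or the cytoplasm (0.31, SE 0.13, edgeR adjusted p = 0.134), and the nuclear sign turned under DESeq2 size factors (0.01). Its ratio change was -0.32 (SE 0.16, edgeR adjusted p = 0.226).

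PER2 (ENSG00000132326, chr2:239152685-239198743, minus strand) encodes the repressor whose protein turnover sets much of the clock's pace. Control nuclei had 11.0, 10.3 and 11.5 CPM and RNAi nuclei 14.6, 20.3 and 19.6 CPM, so all 3 RNAi libraries were higher. PER2 rose in the nucleus 1.67-fold (log2 0.74, SE 0.15, edgeR adjusted p = 0.0345). That call was lost without control nuclear replicate 3 (log2 0.77, adjusted p = 0.128 by edgeR) and without RNAi nuclear replicate 2 (0.65) or 3 (0.68), as well as with the transcript length offset (0.72) and limma (0.56). RNAi cytoplasm had 14.3 and 16.6 CPM, or 183 and 152 estimated counts, while the control cytoplasmic library listed 0.

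That 0 stood alone. Of 7100 genes with at least 100 estimated counts in each of the other 8 libraries, PER2 was the only one at 0 in the control cytoplasmic library, and leaving each of the other libraries in that place gave no such gene. The leading PER2 transcript, PER2-201, is 6385 nt long. Among 32048 transcripts that could not be matched to a gene, 2 had at least 100 estimated counts in the control cytoplasmic library and 0 in all 8 others. One of these, ENST00000254658, is 6235 nt long and had 188 estimated counts there, or 11.4 CPM. The annotation used here does not name its gene, so whether its reads belong to PER2 cannot be told from the files. Read as deposited, RNAi cytoplasm was at least 84.6-fold above the 3-count floor of the control library (0.183 CPM). With the transcript added to PER2, an alternative chosen after these values were seen, the cytoplasmic log2 fold change was 0.43 (edgeR adjusted p = 0.211). The ratio change then turned from lower to 0.31 (edgeR adjusted p = 0.489) and neither was called, while the nuclear rise was 0.74 in both fits.

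**Figure D2:**
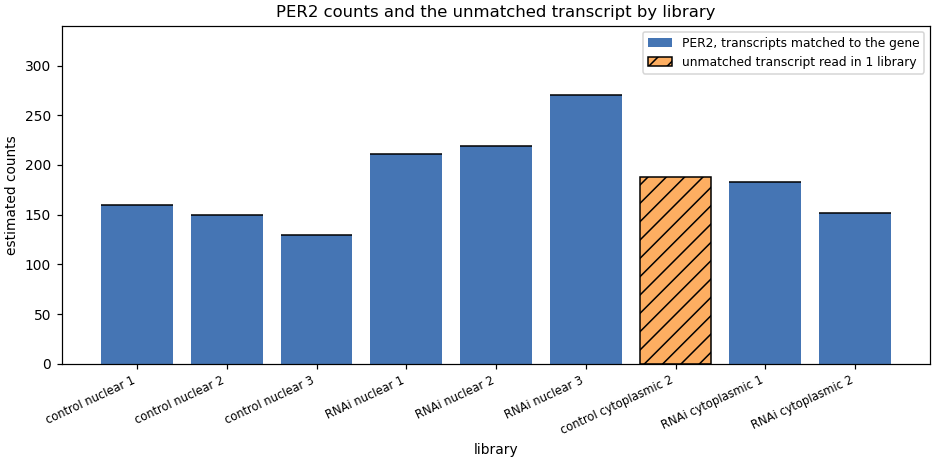
Estimated counts of PER2 (solid bars) in each of the 9 libraries and of the unmatched transcript (hatched bar). The control cytoplasmic library has 0 PER2 counts and 188 counts of the transcript, which is at 0 in the other 8 libraries, and PER2 itself ranges from 130 to 270 there.

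PER3 (ENSG00000049246, chr1:7844351-7905237, plus strand) encodes the third period protein, whose loss leaves the loop largely running. Control nuclei had 3.91, 2.45 and 3.54 CPM and RNAi nuclei 5.77, 2.87 and 3.85 CPM. In the cytoplasm the control library had 7.24 CPM and the RNAi ones 7.48 and 3.72 CPM. On the CPM scale the groups overlapped in both fractions. On the TPM scale the nuclear groups did not, at 0.488 to 0.567 TPM in control and 0.72 to 0.97 TPM in RNAi nuclei. None of the 3 changes was called (nucleus 0.35, cytoplasm -0.34, ratio 0.70 on the log2 scale, SEs 0.33, 0.44 and 0.55). With the replicate number added to the fit as a block, the ratio (1.21) and cytoplasmic (-0.90) changes were called. The numbers were not taken as pairs. In control cells PER3 was lower in the nucleus than in the cytoplasm (log2 -1.13, SE 0.41, edgeR adjusted p = 0.0423), a call lost with protein-coding transcripts only (-0.95) and limma (-0.46).

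CRY1 (ENSG00000008405, chr12:107385142-107487327, minus strand) encodes the stronger repressor of the cryptochrome pair. Control nuclei had 25.2, 25.8 and 28.0 CPM and RNAi nuclei 20.1, 17.7 and 18.5 CPM, all lower. The control cytoplasmic library had 37.2 CPM and the RNAi ones 25.5 and 17.3 CPM, both lower. CRY1 fell in the cytoplasm to 0.578 of the control level (log2 -0.79, SE 0.20, edgeR adjusted p = 0.0223). Its nuclear change of -0.49 (SE 0.14, edgeR adjusted p = 0.0871) passed the adjusted p but was just under the fold threshold, and was called without control nuclear replicate 1 (-0.52) or 2 (-0.50). The ratio change was 0.30 (SE 0.25, edgeR adjusted p = 0.465).

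CRY2 (ENSG00000121671, chr11:45868669-45904799, plus strand) encodes the other cryptochrome. Control nuclei had 25.8, 26.2 and 24.7 CPM and RNAi nuclei 28.5, 29.3 and 27.8 CPM, which did not overlap. On the TPM scale they overlapped, at 6.57 to 8.74 TPM in control and 8.01 to 9.57 TPM in RNAi nuclei. In the cytoplasm the control library had 12.7 CPM and the RNAi ones 17.3 and 21.1 CPM, both higher. CRY2 rose in the cytoplasm 1.51-fold (log2 0.60, SE 0.17, edgeR adjusted p = 0.0333), lost without RNAi cytoplasmic replicate 2 (log2 0.40), with the transcript length offset (0.39), with limma (0.10) and with no filter (0.55), and was not called in the nucleus (0.16, SE 0.11). It was called higher in the nucleus than in the cytoplasm in both control cells (log2 1.01, SE 0.16, edgeR adjusted p = 0.000747) and RNAi cells (0.58, SE 0.12, edgeR adjusted p = 0.00239; 0.43, under the fold threshold, without RNAi cytoplasmic replicate 1). The difference between these, the ratio change, was -0.44 (SE 0.20, edgeR adjusted p = 0.183).

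NR1D1 (ENSG00000126368, chr17:38249046-38256842, minus strand) encodes REV-ERBα, the heme-binding repressor of BMAL1. Control nuclei had 19.4, 19.7 and 17.5 CPM and RNAi nuclei 22.5, 25.6 and 25.3 CPM, all higher. The control cytoplasmic library had 23.4 CPM and the RNAi ones 43.3 and 32.4 CPM. NR1D1 rose in the cytoplasm 1.62-fold (log2 0.70, SE 0.19, edgeR adjusted p = 0.0306), a call lost without RNAi cytoplasmic replicate 1 (log2 0.47) and with limma (0.36). The nuclear change of 0.37 (SE 0.13) had an edgeR adjusted p of 0.141. Exons of THRA on the opposite strand, with 581 to 1136 estimated counts, share 473 bases with NR1D1.

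NR1D2 (ENSG00000174738, chr3:23986777-24022108, plus strand) encodes REV-ERBβ, its close relative. Control nuclei had 13.5, 8.93 and 12.1 CPM and RNAi nuclei 11.9, 11.7 and 10.2 CPM, with overlap. In the cytoplasm the control library had 27.9 CPM, above 18.8 and 15.7 CPM after RNAi. NR1D2 fell in the cytoplasm to 0.623 of the control level (log2 -0.68, SE 0.23, edgeR adjusted p = 0.0601), lost without RNAi cytoplasmic replicate 2 (log2 -0.61), with the transcript length offset (-0.67) and with limma (-0.74). Its ratio change was 0.65 (SE 0.28, edgeR adjusted p = 0.164). It was called without control nuclear replicate 1 (0.84), without scaling for composition (0.94) and with the replicate block (0.82). NR1D1 and NR1D2 thus had cytoplasmic changes of opposite sign. A direct test between the genes was not run.

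DBP (ENSG00000105516, chr19:49133287-49140636, minus strand) encodes the D-box activator, one of the strongest outputs of the loop. Control nuclei had 18.1, 22.9 and 22.9 CPM and RNAi nuclei 22.7, 24.0 and 27.2 CPM, with overlap. The control cytoplasmic library had 39.0 CPM and the RNAi ones 54.2 and 63.3 CPM. DBP rose in the cytoplasm 1.50-fold (log2 0.59, SE 0.19, edgeR adjusted p = 0.0526), lost without control nuclear replicate 3 (log2 0.53) and without RNAi cytoplasmic replicate 2 (0.42), as well as with the transcript length offset (0.61), protein-coding transcripts only (0.54) and limma (0.33). It was lower in the nucleus than in the cytoplasm in both control (log2 -0.88, SE 0.17, edgeR adjusted p = 0.00225) and RNAi cells (-1.25, SE 0.14, edgeR adjusted p = 4.3e-05). Exons of SPHK2 on the opposite strand, with 382 to 625 estimated counts, share 661 bases with DBP.

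**Figure D3:**
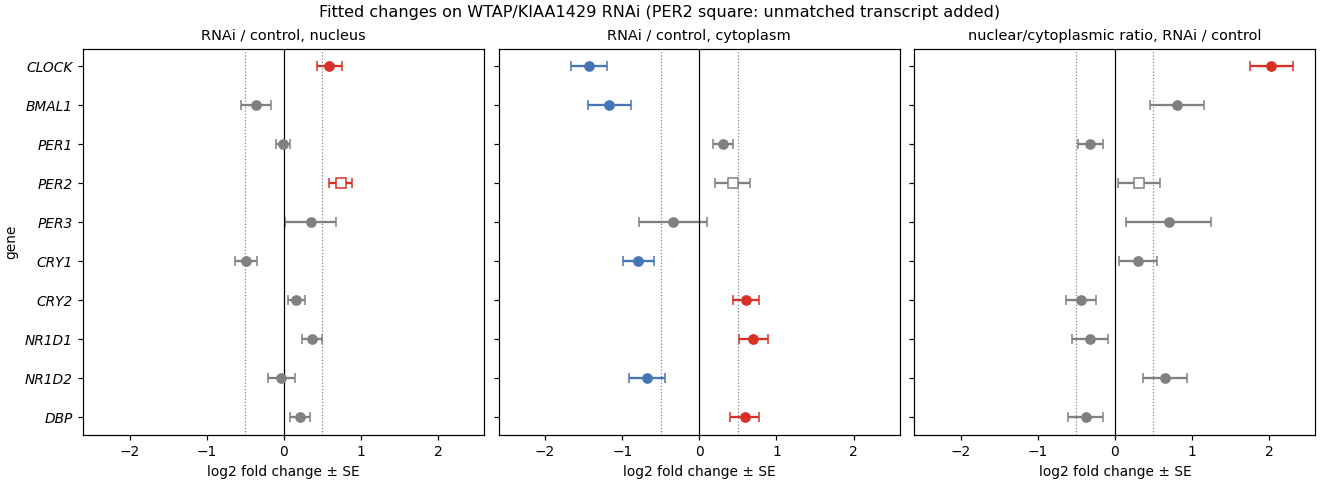
Log2 fold change with SE (horizontal axis) of the 10 clock genes in the nucleus, in the cytoplasm and in the nuclear/cytoplasmic ratio, where red and blue mark genes called higher and lower, dotted lines the fold threshold of 0.5, and the open PER2 square the fit with the unmatched transcript added. CLOCK lies at 0.59, -1.43 and 2.03 in the 3 panels.

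Counted over the nuclear contrast, 2 of 10 members were called higher (CLOCK and PER2) and 0 lower, beside 2.47% and 2.42% of all genes. By edgeR 3 members were higher and 1, CRY1, lower at an unadjusted p under 0.05, beside 1635 and 1735 of 16181 genes. DESeq2 also called 2 members higher and 0 lower, beside 325 and 292 genes. Over all genes, 792 calls in this contrast became 88 without control nuclear replicate 3 and 256, 106 and 52 without RNAi nuclear replicates 1, 2 and 3. On the CPM scale the RNAi and control nuclear libraries did not overlap for 5 of the 10 members, beside 28.1% of all genes. The median nuclear log2 fold change of the members was 0.19, beside -0.00 over all genes. Without scaling for composition the share of nuclear calls that were higher went from 50.5% to 67.8%. In the bulk fractions fewer cells and less RNA per cell cannot be told apart.

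In the cytoplasm 4 members were called higher (NR1D1, CRY2, DBP and, on its value of 0, PER2) and 4 lower (CLOCK, BMAL1, CRY1 and NR1D2). Of all genes 10.4% were called higher and 14.2% lower. The median was -0.02 over the members and 0.01 over all genes. These calls rest on a single control library, whose spread was assumed to be that of the other groups. Without scaling for composition the median over all genes fell to -0.24, the share of calls that were higher went from 42.1% to 11.9%, and NR1D1, CRY2 and DBP were no longer called at log2 0.45, 0.33 and 0.33. Measured from that median they were at 0.68, 0.57 and 0.56, and CLOCK at -1.46. With PER2 read together with the unmatched transcript, 3 members were higher and 4 lower.

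Within control cells the nucleus was compared with the cytoplasm. There 2 members were called higher in the nucleus (CRY2 and, on the 0, PER2) and 5 lower (NR1D2, PER3, CLOCK, DBP and CRY1), beside 28.0% and 22.7% of all genes. NR1D2 had the lowest value, at -1.28 (SE 0.21), and CRY1 stood at the fold threshold with -0.50 (SE 0.19). The CRY1 call was lost on leaving out control nuclear replicate 1 or 2 (-0.48 each) or any RNAi nuclear replicate (-0.49 each), and with protein-coding transcripts only (-0.23) or limma (-0.59). With the unmatched transcript, PER2 was at -0.07. In RNAi cells 2 members were higher in the nucleus (CLOCK and CRY2) and 3 lower (DBP, NR1D1 and NR1D2), beside 32.9% and 24.9% of all genes. NR1D1 was at -0.63 (SE 0.14) and NR1D2 at -0.63 (SE 0.18). Without RNAi cytoplasmic replicate 1, NR1D1 was at -0.41, NR1D2 at -0.49 and CRY2 at 0.43, and none was called. The NR1D1 and NR1D2 calls were also lost with protein-coding transcripts only (-0.34 and -0.40), with limma (-0.21 and -0.12) and without scaling for composition (-0.37 and -0.36), and the CRY2 call with no filter (0.48). Without scaling for composition the share of calls that were higher in the nucleus of RNAi cells went from 56.9% to 75.5%. Both comparisons share their libraries with the preceding ones, so their values are not separate evidence.

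The 10 genes had 88 transcripts in the files, of which 72 were above 0 in some library and 28 passed the count minimum. Salmon, the program that estimated the counts, divides reads between overlapping transcripts, and the transcript values of one gene therefore depend on each other. In the transcript fit 1.03% of 44726 transcripts were called in the ratio contrast. Of the 28 members' transcripts only PER2-201 was called (log2 -9.89, again against 0 in the control cytoplasmic library). In the nuclear contrast 0.0% of all transcripts and 0 of the 28 were called by edgeR, the tool run on transcripts. At an unadjusted p under 0.05 there were 4416 transcripts in all and 4 of the 28, PER1-205, PER1-202, PER2-201 and CRY1-201. CLOCK-201, the full-length coding transcript of 10304 nt, had a ratio change of 1.73 (SE 0.51, edgeR adjusted p = 0.212).

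By reads, most of the PER1 signal came from a coding transcript, and by TPM, which divides by length, a short transcript held the largest share. PER1-201, coding and 4707 nt long, had 72.6% of the gene's estimated counts over the 9 libraries and 19.6% of its TPM. PER1-207, a 540-nt transcript annotated as a retained intron, had 16.2% of the counts and 59.1% of the TPM. The CPM values and tests of the gene rest on counts. PER1-207 had 62.0, 63.9 and 70.4 TPM in control nuclei and 57.8, 61.9 and 52.5 TPM in RNAi nuclei. It had 81.9 TPM in the control cytoplasmic library and 103.7 and 87.1 TPM in the RNAi ones, so this transcript was not higher in the nucleus. PER1-205, an 830-nt transcript with no defined coding sequence, had 9.71, 15.7 and 12.5 TPM in control nuclei and 19.7, 26.3 and 26.5 TPM in RNAi nuclei. The libraries did not overlap, but its nuclear log2 fold change of 0.91 (SE 0.19) had an edgeR adjusted p of 0.2. PER1-201 stayed between 19.0 and 27.1 TPM in all 9 libraries. The exons of PER1 share 30 bases with ENSG00000263620 on the same strand, which had at most 50 estimated counts.

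The scales differed in the same way for CRY1. The coding CRY1-201 had 70.9% of the gene's counts and 34.3% of its TPM, and CRY1-204, 830 nt with no defined coding sequence, 26.1% and 62.4%. CRY1-201 had 5.37, 6.76 and 5.82 TPM in control nuclei and 4.45, 4.61 and 4.36 TPM in RNAi nuclei, and the groups did not overlap (log2 -0.48, SE 0.17, edgeR adjusted p = 0.408). In the cytoplasm CRY1-201 went from 7.61 TPM to 4.75 and 2.88 TPM. BMAL1-211, annotated as a target of nonsense-mediated decay, had the largest share of BMAL1, at 36.4% of TPM and 38.7% of counts, and the coding BMAL1-203 was at 0 in 4 of the 9 libraries. CLOCK was spread over 5 transcripts with 11.4% to 24.6% of TPM each, of which CLOCK-201 had 57.5% of the counts. CLOCK-211, a shorter coding form of 3580 nt, was at 1.22 TPM in the control cytoplasmic library and at 0.38 and 0.319 TPM in the RNAi ones. CLOCK-209, a retained intron form, was at 0.849 TPM there and at 0.331 and 0.151 TPM after RNAi. CLOCK-201 was at 0.597 TPM there and at 0.166 and 0.237 TPM after RNAi. CLOCK-208 went from 0.58 TPM to 0.371 and 0 TPM, and CLOCK-204 from 0.4 TPM to 0 in both. These last held only 1.69% and 0.75% of the gene's counts. These 5 CLOCK transcripts were thus all lower in both RNAi cytoplasmic libraries. CLOCK had 11 transcripts in the files, 9 of them above 0 in some library, and those with under 10% of its TPM are not described here.

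The remaining members were simpler, and their shares are of TPM. NR1D1 had 1 transcript, and NR1D2-201 held 95.9% of NR1D2. CRY2-202, coding, held 79.1% of CRY2, and its retained intron transcript CRY2-205 12.6%. CRY2-205 was at 0.835 to 1.53 TPM in the 6 nuclear libraries and at 0 to 0.159 TPM in the 3 cytoplasmic ones, with no overlap. All 5 retained intron transcripts of CRY2 together did not separate the control fractions by share. They held 17.8% to 23.9% of CRY2 in control nuclei and 18.2% in the control cytoplasmic library. After RNAi they held 16.6% to 33.2% in nuclei and 0% to 4.03% in cytoplasm. PER2-201 held 84.5% of PER2, and PER2-204, a retained intron transcript, 11.8% but only 0.682% of the estimated counts. PER2-204 was at 0 in control nuclear replicate 1 and in all 3 cytoplasmic libraries. In the control cytoplasmic library every PER2 transcript was at 0, so its value there says nothing about the compartments. PER3 was divided between the coding PER3-202 (42.7%) and PER3-201 (43.6%), each at 0 in at least 1 nuclear library. DBP had 3 coding transcripts with 19.0% to 54.3%, and DBP-201 went from 15.3 TPM in the control cytoplasmic library to 19.6 and 18.3 TPM after RNAi.

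**Figure D4:**
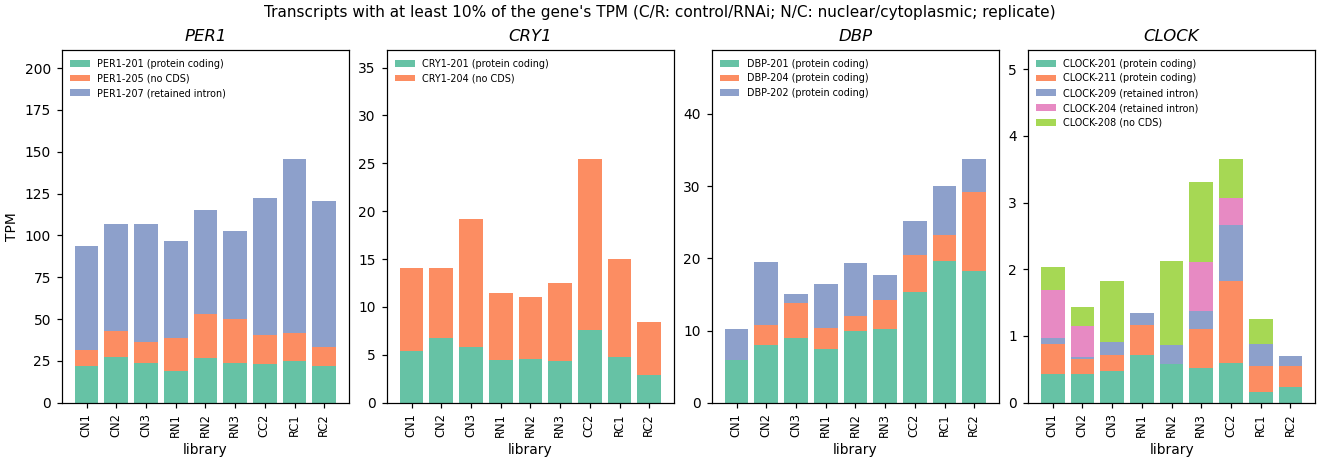
TPM (stacked bars from 0) of the transcripts that hold at least 10% of the gene's TPM for PER1, CRY1, DBP and CLOCK in the 9 libraries (C or R for control or RNAi, N or C for nuclear or cytoplasmic, then the replicate). The retained intron transcript PER1-207 is the tallest PER1 segment in every library, from 52.5 to 103.7 TPM.

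Other exon overlaps were small in counts. UTS2 shares 868 bases with PER3 on the opposite strand and had at most 2 estimated counts. ENSG00000236266 (482 bases, at most 1 count) also lies opposite PER3, ENSG00000225057 (188 bases, at most 3 counts) opposite PER2 and ENSG00000257548 (94 bases, 0 counts) opposite CRY1. ENSG00000290083 shares 421 bases with BMAL1 on the opposite strand and was not analysed here. Whether salmon was run with strand is not given in the sources used here, so reads of a gene and its antisense partner may not have been kept apart.

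A further 41 genes act on the loop, as kinases, phosphatases, ubiquitin ligases, cofactors and paralogues of the core, and all 41 were among the genes tested. In the ratio contrast DESeq2 called 5 of 41 higher and 1 lower, beside 1281 and 1138 of 16181 genes. By edgeR 11 were higher and 6 lower at an unadjusted p under 0.05, beside 2314 and 2221 genes. After adjustment edgeR called 5 of 41 higher and 0 lower, beside 10.4% and 7.87% of all genes, and the median of the 41 was -0.02. The 5 were PRKAA2 and PRKAA1, the catalytic subunits of AMPK, which marks cryptochromes for degradation, with log2 fold changes of 1.74 (SE 0.26) and 1.25 (SE 0.21). NAMPT, which makes NAD in a clock-driven loop with SIRT1, was at 1.41 (SE 0.25). CREB1, which links light and cyclic AMP to PER1, was at 1.04 (SE 0.24), and NCOR1, the corepressor that NR1D1 recruits, at 0.67 (SE 0.20). The NCOR1 call was lost without control nuclear replicate 3 (0.72), any RNAi nuclear replicate (0.67, 0.68 and 0.64) or either RNAi cytoplasmic replicate (0.69 each), and the other 4 kept theirs in all 8 fits that left out a library. Each was lower in both RNAi cytoplasmic libraries than in the control one. NAMPT, for example, had 33.5 CPM in the control cytoplasmic library and 11.6 and 13.3 CPM after RNAi, and 9.26 to 12.6 CPM in control and 10.1 to 11.6 CPM in RNAi nuclei.

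In the nuclear contrast DESeq2 called 0 of the 41 in either direction, beside 325 higher and 292 lower of 16181 genes. By edgeR 4 were higher and 4 lower at an unadjusted p under 0.05, beside 1635 and 1735 genes. After adjustment edgeR called 1 of the 41 higher and 0 lower, beside 2.47% and 2.42% of all genes. It was HLF, a relative of DBP, at 2.52 to 3.78 CPM in control and 4.45 to 5.81 CPM in RNAi nuclei (log2 0.74, SE 0.23, edgeR adjusted p = 0.0989), a call lost without control nuclear replicate 2 (0.62) or 3 (0.66) or any RNAi nuclear replicate (0.78, 0.81 and 0.62). In the cytoplasm 7 were called higher and 11 lower, beside 10.4% and 14.2% of all genes. TEF and HLF, which bind the D-box like DBP, were among the higher ones at 1.03 (SE 0.31) and 0.97 (SE 0.32). RORA, the activator that competes with the REV-ERBs at BMAL1, and SIRT1 were among the lower ones at -1.16 (SE 0.44) and -0.85 (SE 0.26). TEF, RORA and SIRT1 were named after their values were seen.

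**Figure D5:**
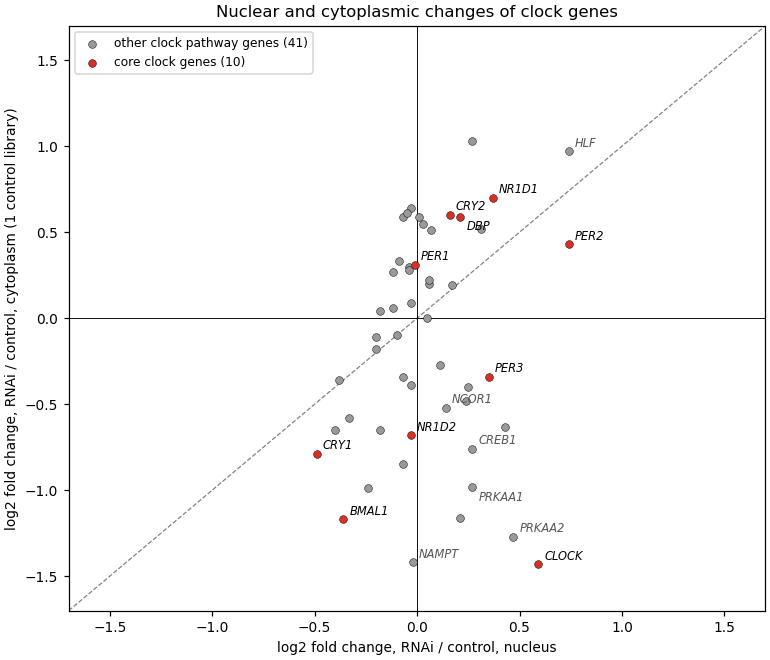
Log2 fold change on RNAi in the nucleus (horizontal) and in the cytoplasm (vertical, against 1 control library) for the 10 core clock genes (red; PER2 with the unmatched transcript added) and 41 other clock pathway genes (grey). Genes below the dashed diagonal have a higher nuclear/cytoplasmic ratio after RNAi, with CLOCK at 0.59 and -1.43.

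For the 3 members with the highest mean CPM, the genes most alike over the 9 libraries were listed by Pearson correlation of log2 CPM. They were GOT2 (r = 0.981) and KCTD10 (0.98) for PER1, NME2 (0.995) and SSBP4 (0.994) for DBP, and KAT14 (0.971) and USP4 (0.969) for NR1D1. Among 16180 genes, 1373 had a correlation over 0.9 with DBP, 563 with PER1 and 257 with NR1D1. The 9 points share fraction and siRNA, so such values are a description of the groups.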

How the data were processed

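Nuclear and cytoplasmic RNA of HEK293 cells was sequenced in 9 libraries. Per the labels and the study's methods, the authors trimmed reads with cutadapt and ran salmon against Ensembl transcripts of hg19. They deposited an estimated count and a TPM value per transcript, not normalized between libraries, beside transcript lengths. Transcripts were matched to GENCODE v44 on GRCh37, and 183122 of 215170 (85.1%) had a gene. Estimated counts were summed per gene, rounded, filtered at 10 in at least 3 libraries and fitted with edgeR 4.0.16 (TMM, 4 groups, quasi-likelihood, Benjamini-Hochberg), with 5 residual degrees of freedom. Alternatives used DESeq2 1.42.0 and limma 3.58.1. CPM are TMM-scaled. The floor of 3 counts was 0.19 to 0.303 CPM before scaling and covers counting error only. The code was tested on simulated data. Named transcripts held at least 10% of their gene's TPM, and named pathway genes were called in the ratio or nuclear contrast, with exceptions (PER1-202, TEF, RORA, SIRT1) named after their values were seen. The members and gene lists were chosen with earlier results of these data known, and some genes of the pathway list are not reported here.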

Additional observations from a re-analysis of the deposited data

Results flagged for a closer look

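The change on RNAi differed between nucleus and cytoplasm for these genes by the test of that difference, the ratio contrast. CLOCK had a log2 difference of 2.03, PRKAA2 1.74, NAMPT 1.41, PRKAA1 1.25, CREB1 1.04 and NCOR1 0.67. PER2 had -9.92, which rests on the 0 in the control cytoplasmic library and was 0.31 with the unmatched transcript added. All 7 values use the single control cytoplasmic library, and the part of that library in them was not tested. No group had more than 3 libraries, so single libraries were not screened as outliers.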

How the results depend on the processing

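Of 865 gene values recomputed under the alternatives, 769 kept their direction and side of the threshold, 56 kept the direction but lost the call, 16 gained one and 24 turned sign; the causes were not tested. The CLOCK ratio call held in all 17 alternatives tried, none of which left out the single control cytoplasmic library.

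Members called in the ratio contrast (2) numbered 1 with limma on log2(TPM + 1) and 1 with the unmatched transcript added to PER2. In the nuclear contrast (2) there were 1 at an FDR of 0.05, 1 with protein-coding transcripts only, 0 with the transcript length offset and 0 with limma. In the cytoplasmic contrast (8) there were 5 with library size only, 4 with the length offset and 4 with limma. Leaving out 1 library gave 2 to 3 members in the ratio contrast, 0 to 3 in the nuclear, 5 to 8 in the cytoplasmic, 2 to 6 for nucleus against cytoplasm of RNAi cells and 6 to 7 for control cells, and 0 to 1 member transcripts (1) in the ratio contrast; leaving out the control cytoplasmic library was not possible.

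The labels number the replicates, but same-numbered nuclear libraries had correlated deviations of 0.185, 0.11 and 0.042, so the numbers were not taken as pairs, although 5 of 6 nuclear libraries correlated best with their own number. A replicate block gave 4 members in the ratio contrast (PER3 at 1.21 and NR1D2 at 0.82 added), 9 in the cytoplasmic (PER3 at -0.90 added), 8 in control cells (BMAL1 at -0.63 added) and 0 member transcripts. Over all genes the block gave 4038 ratio, 4719 cytoplasmic and 8062 control-cell calls. The main fit gave 2953, 3983 and 8217.

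Signs turned as follows. In the ratio contrast limma gave CRY2 0.13, NR1D1 0.01 and PER1 0.00, and PER2 was 0.31 with the unmatched transcript. In the nuclear contrast PER1 was 0.01 with DESeq2 size factors, 0.02 with library size only, 0.01 with DESeq2, 0.05 with the length offset and 0.12 with limma, and -0.07 to 0.06 on leaving out a library. NR1D2 was 0.01 with library size only, 0.04 with the length offset and 0.08 with limma, and -0.19 to 0.10 on leaving out a library. For nucleus against cytoplasm of RNAi cells, CRY1 was 0.06 with library size only, 0.15 with protein-coding transcripts only and 0.09 with limma (-0.41 to 0.12 on leaving out a library), PER3 0.06 with limma (-0.80 to 0.18) and BMAL1 -0.05 with the length offset. In control cells PER1 was 0.18 with protein-coding transcripts only and PER2 -0.07 with the unmatched transcript.

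Over all genes the ratio contrast had 2953 calls, 1782 with the length offset, 1074 with limma, and 1920 and 1957 without control nuclear and RNAi nuclear replicate 3. The nuclear contrast had 792, and 490 with library size only, 442 with the length offset, 512 with protein-coding transcripts only, 174 with limma and 1306 with no filter. The cytoplasmic contrast had 3983, and 1495 with limma. With limma 97.2% of ratio, 87.4% of nuclear and 6.62% of cytoplasmic calls were higher. At 25 to 119 counts a library, changes of BMAL1 and PER3 have wide errors.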
